A study of Mus musculus with 25 samples.

Results

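The 6 genes described here encode the subunits of protein kinase A (PKA) in the mouse: the regulatory subunits *Prkar1a*, *Prkar1b*, *Prkar2a* and *Prkar2b*, and the catalytic subunits *Prkaca* and *Prkacb*. Members were taken by gene symbol, which gave 6 of 24439 genes in the RNA-seq tables and, by the nearest annotated gene, 26 of 65053 consensus ATAC-seq peaks. The samples came from a pair of mouse islet cell lines, alpha TC1 clone 6 (αTC1) and beta-TC-6 (βTC6), each a line derived from tumors of transgenic mice that express the SV40 large T antigen under a glucagon (αTC1) or insulin (βTC6) promoter. RNA-seq was performed on 3 αTC1 and 3 βTC6 samples, and ATAC-seq, which reads out open chromatin by transposase insertion, on 5 αTC1 samples, 5 βTC6 samples and 9 mixtures of the lines in steps of 10% from 10% to 90% βTC6 cells. None of the cells carried a further treatment, but each line was kept in its own medium, so line and medium cannot be told apart. The base was a different Dulbecco's Modified Eagle's Medium for each line. For αTC1 it was supplemented with HEPES, non-essential amino acids, albumin and glucose, and for βTC6 with more serum and with sodium pyruvate. The glucose content of the βTC6 medium was not stated, so glucose cannot be compared between the lines. The labels do not say whether replicates were separate cultures, and p-values then measure only the spread between these samples.

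PKA is a tetramer in which a dimer of regulatory subunits holds catalytic subunits inactive until cAMP binds the regulatory subunits. Type I holoenzymes contain RIα or RIβ (*Prkar1a*, *Prkar1b*) and are largely cytosolic, whereas type II holoenzymes contain RIIα or RIIβ (*Prkar2a*, *Prkar2b*) and are tethered by A-kinase anchoring proteins. In islets, cAMP acts through PKA and through the exchange factor Epac2 to amplify insulin secretion, and PKA phosphorylates CREB, which binds cAMP response elements in its target genes.

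In the RNA-seq libraries, αTC1 markers and βTC6 markers followed the labels. Of 6 alpha cell markers, 5 were called higher in αTC1 (edgeR, false discovery rate (FDR) under 5% and absolute log2 fold change over 2), and *Ttr* was not (835 ± 154 FPKM in αTC1 and 1116 ± 526 in βTC6, SD, n = 3 each). All 6 beta cell markers were called higher in βTC6, and their summed level ran from 14.5 to 15.5 FPKM in αTC1 and from 34097 to 51148 FPKM in βTC6. The summed alpha cell list ran from 13272 to 15355 FPKM in αTC1 and from 738 to 1862 FPKM in βTC6, where *Gcg* itself stood at 229 ± 50.4 FPKM. The list of other cell types (17 genes, 6 tested) had 2 genes called higher in βTC6 (*Sst*, and *Ppy* at 0.093 ± 0.0058 and 26 ± 23.7 FPKM) and 3 called higher in αTC1 (acinar *Cela1* at 3.65 ± 0.061 and 0.407 ± 0.36 FPKM, ductal *Sox9* at 4.24 ± 0.19 and 0, and fibroblast *Col1a2* at 1.58 ± 0.47 and 0.133 ± 0.084), with sums of 11.1 to 11.8 FPKM in αTC1 and 242 to 352 FPKM in βTC6. The other fibroblast and acinar markers of the list were low in both lines. *Col1a1* was at 0.14 ± 0.07 FPKM in αTC1 and 0.13 ± 0.026 in βTC6, *Dcn*, *Cpa1* and *Pnlip* had means of at most 0.04, and *Prss1* was at 0. The delta cell marker *Hhex* went against *Sst*, at 0.087 ± 0.038 FPKM in αTC1 and 0.0067 ± 0.012 in βTC6. *Ptprc* and *Krt19* were at or near 0. The macrophage marker *Cd68* was at 1.08 ± 0.14 and 2.11 ± 0.083 FPKM (log2 fold change 1.09 ± 0.21, edgeR adjusted p = 0.0014). The part of other cells in the results below was not tested. RNA libraries held 21954031 to 26033482 expected counts, and ATAC libraries held 4397851 to 10374903 reads in peaks.

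The sequences below come from peaks described later, 4 that differed between the lines and the *Prkaca* promoter, open in both, for comparison: for each of 5 genes, 1 stretch of 250 bp, free of annotated exons, from the peak within 2 kb of a start with the most reads or, for *Prkar2b*, from the more distant peak with the largest difference in mean normalized count between the lines. They were read from the mm9 genome (NCBIM37), plus strand, 5′ to 3′, and capitals mark matches on either strand to the core of the cAMP response element (TGACG), the GC box (GGGCGG) and the CCAAT box (CCAAT).
Prkar1a promoter peak, first intron (chr11:109511939-109512188): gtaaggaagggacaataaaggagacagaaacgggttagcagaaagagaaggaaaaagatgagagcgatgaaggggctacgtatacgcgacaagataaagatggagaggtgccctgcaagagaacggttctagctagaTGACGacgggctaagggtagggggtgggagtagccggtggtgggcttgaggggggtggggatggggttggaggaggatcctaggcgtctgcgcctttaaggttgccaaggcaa
Prkar1b peak at its inner start (chr5:139604849-139605098): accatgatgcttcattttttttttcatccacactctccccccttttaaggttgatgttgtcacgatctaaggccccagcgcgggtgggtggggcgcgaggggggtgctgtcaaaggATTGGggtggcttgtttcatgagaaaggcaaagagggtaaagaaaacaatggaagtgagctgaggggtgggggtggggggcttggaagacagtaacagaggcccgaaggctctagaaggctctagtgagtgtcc
Prkar2a promoter peak (chr9:108594224-108594473): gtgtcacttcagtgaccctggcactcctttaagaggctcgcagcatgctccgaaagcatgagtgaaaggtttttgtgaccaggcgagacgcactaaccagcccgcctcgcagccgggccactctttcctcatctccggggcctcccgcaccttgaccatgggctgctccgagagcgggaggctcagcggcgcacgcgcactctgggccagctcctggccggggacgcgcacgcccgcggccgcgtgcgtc
Prkar2b intronic peak (chr12:32700196-32700445): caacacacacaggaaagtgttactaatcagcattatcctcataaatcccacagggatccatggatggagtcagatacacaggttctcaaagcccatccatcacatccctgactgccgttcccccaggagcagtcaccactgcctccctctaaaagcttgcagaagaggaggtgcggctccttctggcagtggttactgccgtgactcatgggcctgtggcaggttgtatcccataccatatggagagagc
Prkaca promoter peak (chr8:86496558-86496807): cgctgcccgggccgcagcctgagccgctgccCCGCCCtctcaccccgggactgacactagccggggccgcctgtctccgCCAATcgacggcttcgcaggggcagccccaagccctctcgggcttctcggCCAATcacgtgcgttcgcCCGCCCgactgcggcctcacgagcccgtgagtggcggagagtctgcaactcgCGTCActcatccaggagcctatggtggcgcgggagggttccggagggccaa

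The *Prkar1a* stretch held 1 TGACG at bases 138 to 142, and the *Prkaca* stretch held 1 on the minus strand at bases 200 to 204, together with 2 GC boxes and 2 CCAAT boxes. No full cAMP response element (TGACGTCA, which contains TGACG) stood in the central 250 bp of any of the 26 peaks. Over all peaks, TGACGTCA occurred in 1.99% of 14582 such windows within 2 kb of a start and in 0.624% of 50471 more distant windows. TGACG occurred in the windows of 4 of the 10 subunit peaks within 2 kb of a start, against 24.6% of all such peaks, and in 3 of 16 more distant ones, against 11.7%. Of these 7 windows, 4 belonged to *Prkar1a*. A homeodomain core (TAATTA) was in none of the 26 windows and a forkhead site (TGTTTAC) was in 2 distant ones, where all distant peaks had 10.4% and 9.33%. These matches are letters in a window and do not show binding.

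The regulatory subunit transcripts differed between the lines in level and in makeup, while the summed catalytic transcripts were nearly alike. *Prkar1a*, the most abundant subunit transcript of βTC6, was nearly absent from αTC1, *Prkar1b* and *Prkar2b* were also higher in βTC6, and *Prkar2a* was higher in αTC1. The genes are 1 family, and the family was selected on RNA-seq and ATAC-seq differences between the pure lines, so the values of these lines are a description and carry no test. Here and below, fewer cells of a kind and less RNA per cell cannot be told apart in bulk samples.

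*Prkar1a* (ENSMUSG00000020612, chr11:109510719-109530970, plus strand) encodes RIα, the regulatory subunit found in most tissues. It was at 0, 0 and 0.020 FPKM in the αTC1 libraries, which is 1 expected count in a single library, and at 545, 584 and 435 FPKM in the βTC6 libraries, or 36483, 40365 and 28663 expected counts. Set against a floor of 3 counts in each αTC1 library, the level was at least 11346-fold higher in βTC6. It ranked 129 of 24439 genes by mean FPKM in βTC6 and was the highest of the subunit transcripts there, with a mean of 521 ± 77.7 FPKM (SD, n = 3).

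*Prkar1b* (ENSMUSG00000025855, chr5:139493260-139625955, minus strand) encodes RIβ, known best from the brain. It was at 9.01, 9.96 and 12.7 FPKM in αTC1 and at 68.7, 59.4 and 63.4 FPKM in βTC6. The lines did not overlap, and the log2 fold change of βTC6 over αTC1 was 2.67 ± 0.12 (SE), or 6.05-fold in mean FPKM.

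*Prkar2a* (ENSMUSG00000032601, chr9:108594474-108651843, plus strand) encodes RIIα, an anchored regulatory subunit. It was the regulatory transcript with the highest level in αTC1, at 35.7, 34.0 and 34.5 FPKM, and stood at 18.4, 17.5 and 15.4 FPKM in βTC6. It was lower in every βTC6 library than in any αTC1 library, with a log2 fold change of -0.96 ± 0.08 (SE), and the αTC1 mean was 2.03-fold that of βTC6.

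*Prkar2b* (ENSMUSG00000002997, chr12:32643341-32746161, minus strand) encodes RIIβ, abundant in brain, endocrine and fat tissue. It was at 3.17, 2.90 and 4.42 FPKM in αTC1 and at 14.8, 13.7 and 13.6 FPKM in βTC6. The lines did not overlap, and the log2 fold change was 2.13 ± 0.15 (SE), just past the limit of 2 used for calls.

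*Prkaca* (ENSMUSG00000005469, chr8:86496877-86520344, plus strand) encodes Cα, the main catalytic subunit in most tissues. It was at 112, 116 and 109.6 FPKM in αTC1 and at 93.7, 101.6 and 96.9 FPKM in βTC6, with a log2 fold change of -0.15 ± 0.08 (SE). In αTC1 it was the highest subunit transcript, 3.24-fold above *Prkar2a*. *Prkacb* (ENSMUSG00000005034, chr3:146392543-146475924, minus strand) encodes Cβ and has several alternative starts. It was at 33.6, 32.7 and 28.4 FPKM in αTC1 and at 55.3, 51.4 and 46.4 FPKM in βTC6, with a log2 fold change of 0.70 ± 0.09 (SE). Both genes were expressed in every library of both lines, and neither passed the fold limit.

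By the rule for calls, 3 of the 6 genes were called higher in βTC6 and 0 higher in αTC1, where 10.2% and 4.08% of 12195 genes tested were called in these directions. With the FDR alone, 4 were higher in βTC6 and 1 (*Prkar2a*) in αTC1, against 38.7% and 36% of genes. In FPKM the lines did not overlap for any of the 6, 4 of them higher in βTC6 and 2 in αTC1, against 37.3% and 40.4% of all genes tested. The median log2 fold change of the 6 genes was 1.42 with *Prkar1a* at its bound, and that of all genes tested was 0.0094. DESeq2 and scaling by spike-in counts gave the same 3 and 0 calls.

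**Figure D1:**
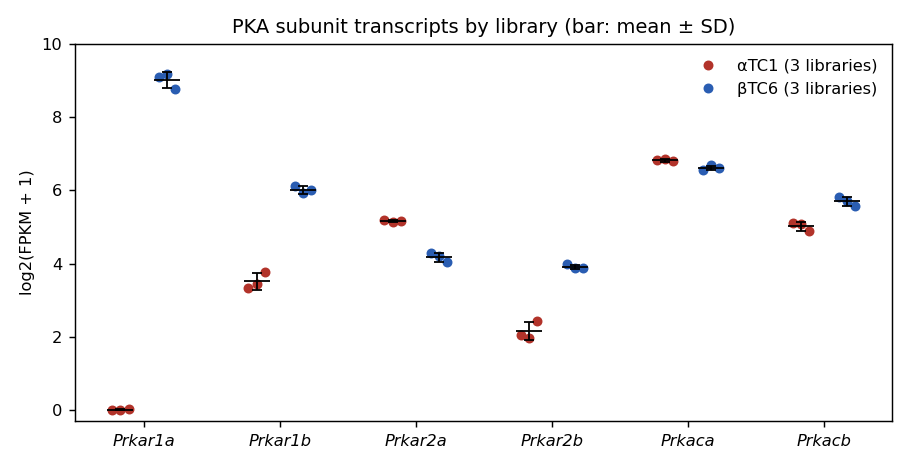
Level of each PKA subunit transcript as log2(FPKM + 1), where points are libraries (αTC1 red, βTC6 blue, 3 each) and black bars are the mean ± SD. *Prkar1a* lies at 0 in αTC1 and above every other subunit in βTC6, and the points of the lines do not overlap for any gene.

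Levels were next compared between genes on the FPKM scale, which is per transcript length. In αTC1 the order was *Prkaca*, *Prkar2a*, *Prkacb*, *Prkar1b*, *Prkar2b* and *Prkar1a*, and in βTC6 it was *Prkar1a*, *Prkaca*, *Prkar1b*, *Prkacb*, *Prkar2a* and *Prkar2b*. No neighbors in either order overlapped between libraries, the closest being *Prkar2a* and *Prkacb* in αTC1 (1.10-fold) and *Prkar2a* and *Prkar2b* in βTC6 (1.22-fold). The regulatory transcripts summed to 47.9, 46.9 and 51.6 FPKM in αTC1 and to 647, 675 and 527 FPKM in βTC6. The catalytic transcripts summed to 145.5, 149 and 138 FPKM in αTC1 and to 149, 153 and 143 FPKM in βTC6, and these sums overlapped. The ratio of catalytic to regulatory transcripts was 2.96 ± 0.26 in αTC1 and 0.243 ± 0.025 in βTC6 (SD, n = 3 each). Without *Prkar1a* the ratio in βTC6 was 1.57 ± 0.11, so the order of the lines held without that gene and the size did not. These are transcripts, and the protein was not measured.

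The regulatory pool was of a different type in each line. *Prkar2a* made up 74.5%, 72.6% and 66.8% of regulatory FPKM in the αTC1 libraries and 2.78% ± 0.17 (SD, n = 3) in βTC6, where it was 4.24% on expected counts without length scaling. *Prkar1a* made up 84.3%, 86.6% and 82.5% in the βTC6 libraries. Both type I genes together held 21.6% ± 2.90 of regulatory FPKM in αTC1, nearly all of it *Prkar1b*, and 94.9% ± 0.44 in βTC6. *Prkar1b* was higher in FPKM in βTC6 but held a smaller share of regulatory FPKM there, 10.5% ± 1.62 against 21.5% ± 2.88 in αTC1. Among catalytic transcripts *Prkaca* held 78.1% ± 1.26 in αTC1 and 65.6% ± 2.45 in βTC6.

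**Figure D2:**
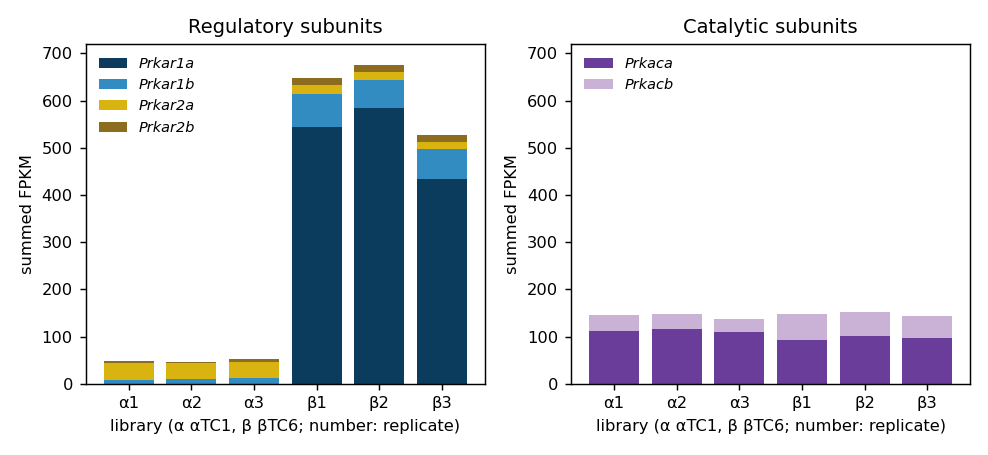
Summed FPKM of the regulatory (left) and catalytic (right) subunit transcripts in each of the 6 RNA-seq libraries, stacked by gene on the same axis. The regulatory sum is 46.9 to 51.6 FPKM in αTC1 and 527 to 675 FPKM in βTC6, and the catalytic sum is 138 to 153 FPKM throughout.

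For each subunit the 3 genes with the closest pattern were taken by Euclidean distance over log2(FPKM + 1) in the 6 RNA libraries. They were *Igf2*, *Tsnaxip1* and *Cck* for *Prkar1a* (distances 0.61, 0.66 and 1.18), with means of 415, 476 and 823 FPKM in βTC6 and at most 0.067 FPKM in αTC1. For *Prkar1b* they were *Entpd4*, *Loxl2* and *Cplx2* (0.48, 0.72 and 0.73), and for *Prkar2a* *B4galt6*, *Bdh1* and *Adss* (0.20, 0.23 and 0.24). For *Prkar2b* they were *Il11ra1*, *Dnm1* and *D4Bwg0951e* (0.39, 0.43 and 0.43). The catalytic genes had nearer neighbors, *Idh3g*, *Rad23b* and *Ywhag* for *Prkaca* (0.097, 0.14 and 0.17) and *Sri*, *Ccnb2* and *Tprgl* for *Prkacb* (0.16, 0.20 and 0.22).

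At the level of chromatin, the 26 peaks were unevenly spread, with 8 at *Prkacb*, 5 each at *Prkar1a*, *Prkar1b* and *Prkar2b*, 2 at *Prkar2a* and 1 at *Prkaca*, and 10 lay within 2 kb of an annotated start. Values are normalized read counts, and no entry is 0, so 1 read cannot be told from none. A *Prkar2b* peak 32950 bp inside the gene was at 1 read in all 19 libraries, as were 471 peaks of the whole table. By FDR and fold, 9 of the 26 were called higher in βTC6 and 1 higher in αTC1, against 12.9% and 5.38% of all peaks (limma on log2(normalized count + 1)). The lines did not overlap at 11 peaks higher in βTC6 and 6 higher in αTC1, against 33.7% and 30.2% of all peaks. The median log2 difference was 0.18 for the 26 peaks and 0.0011 for all. The choice of genes used this contrast, and nothing is read from these counts. Quantile normalization changed the share of calls that were higher in βTC6, over all peaks, from 70.6% to 52.5%, and left 6 and 1 calls among the 26.

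All 5 *Prkar1a* peaks were at 1 read in every αTC1 library, as were 1.17% of all peaks. The promoter peak (chr11:109511316-109512671, 269 bp upstream of the deposited start and over the first exon and intron of the mm9 annotation) was at 49.7, 46.4, 48.6, 57.8 and 43.3 in βTC6, from 226 to 461 reads. This was at least 115-fold the floor of 3 reads in αTC1. A second peak 22431 bp downstream of the start, inside the neighboring *Fam20a*, was at 21.9, 21.3, 19.3, 24.4 and 33.4 in βTC6, at least 56.4-fold above the floor. The remaining peaks, 14807 and 1720 bp upstream of the deposited start and 6088 bp past it, had means of 4.15 ± 1.06, 8.46 ± 1.57 and 7.01 ± 1.44 (SD, n = 5). The deposited start lies inside the gene as annotated. Counted from the annotated gene start, the peak 1720 bp upstream is at -0.176 kb and the promoter peak at 1.27 kb. Every βTC6 library exceeded every αTC1 library at each of the 5.

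*Prkar1a* lies in a run of 54 consecutive peaks on chromosome 11 (chr11:109037675-111177459, 2.14 Mb) at each of which all 5 αTC1 libraries had 1 read. Of 12 genes there with at least 10 expected counts in each βTC6 library, 11 had at most 3 in every αTC1 library and the other reached 4.05. The nearest such genes were *Wipi1*, an autophagy protein, with 6491, 5614 and 3996 counts in βTC6, *Arsg*, a sulfatase, with 243, 204 and 219, and *Fam20a*, which acts in enamel formation, with 515, 787 and 455. All 3 had 0 counts in every αTC1 library. The peak before the run had a mean of 550 in αTC1 and 226 in βTC6, and the peak after it 1.62 and 4.48.

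**Figure D3:**
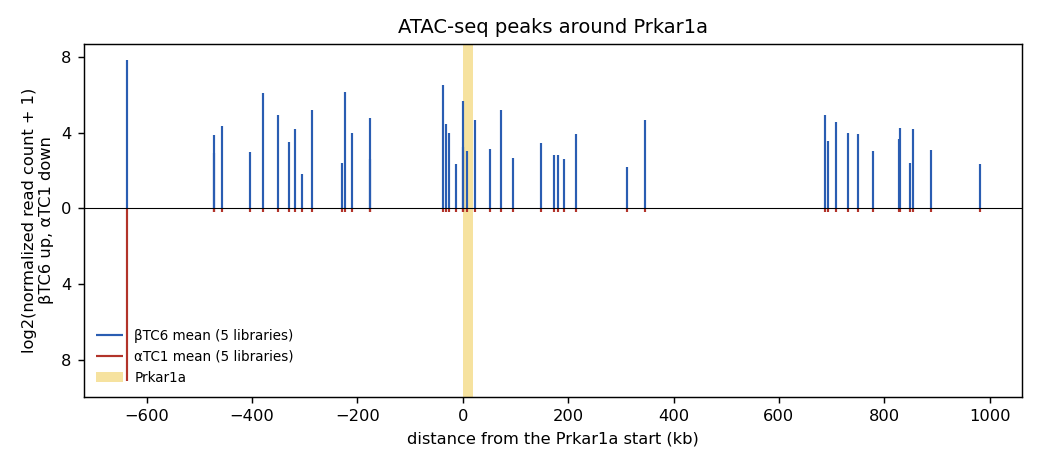
Mean log2(normalized read count + 1) of ATAC-seq peaks around *Prkar1a*, with βTC6 drawn upward in blue, αTC1 downward in red (5 libraries each) and the gene in yellow. The x axis counts in kb from the annotated gene start, not from the deposited start used for distances in the text. βTC6 has signal on both sides of the gene, whereas αTC1 is at 1 read at each peak shown except the leftmost, which has a mean of 550.

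At *Prkar1b* the peak 731 bp past an annotated inner start (chr5:139604585-139605364, intronic in the long transcript) was at 3.64, 3.79, 3.61, 4.23 and 2.74 in αTC1 and at 15.2, 25.8, 17, 20.0 and 13.5 in βTC6. It was the single *Prkar1b* peak with higher values in every βTC6 library, with a log2 difference of 2.04 ± 0.18 (SE). This lay close to the limit of 2 and fell under it without αTC1 replicate 5 (1.97), without βTC6 replicate 2 (1.92) and in replicates 4 and 5 alone (1.98), which left 8 rather than 9 of the 26 peaks called higher in βTC6. It was also under the limit with quantile normalization (1.84) and with a pseudocount of 5 (1.42), which left 6 and 2 such peaks. The peak with the highest mean, 8290 bp upstream of another annotated start but still within the gene, went the other way, at 28.0 ± 2.14 in αTC1 and 15.0 ± 2.25 in βTC6 (SD, n = 5 each). The peak 35979 bp inside was also higher in αTC1, at 14.2 ± 2.38 against 6.63 ± 2.19. Its log2 difference was -1.02 ± 0.19 (SE) over all replicates, -0.62 in replicates 1 to 3 and -1.63 in replicates 4 and 5. Transcript and inner-start peak were thus higher in βTC6, and 3 of the 4 other peaks of the gene were higher in αTC1 without overlap.

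Both *Prkar2a* peaks were higher in αTC1, as was its transcript. The promoter peak (chr9:108594132-108595336, over the first exon) was at 29.1, 37.5, 29.2, 26.2 and 22 in αTC1 and at 15.8, 12.7, 11.8, 10.7 and 10.5 in βTC6, a log2 difference of -1.16 ± 0.14 (SE). The peak 5352 bp upstream was at 9.94, 7.59, 10.7, 9.69 and 11.6 in αTC1 and at 0.710, 2.46, 1.62, 1.14 and 1.13 in βTC6, and its mean was 7-fold higher in αTC1. It was the 1 peak of the 26 called higher in αTC1.

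At *Prkar2b* the promoter peak (chr12:32745214-32746641) was open in both lines, at 44.2 ± 4.53 in αTC1 and 54.2 ± 3.93 in βTC6 (SD, n = 5 each), and the ranges overlapped. A peak 45822 bp inside the gene (chr12:32699913-32700730, intronic) was at 7.56, 7.87, 7.97, 6.41 and 9.53 in αTC1 and at 46.9, 33.2, 36.1, 39.7 and 44.7 in βTC6, with a log2 difference of 2.21 ± 0.13 (SE). The peak 16671 bp inside was higher in αTC1, at 9.59 ± 2.15 against 2.95 ± 1.41. The log2 difference of the promoter peak was 0.29 ± 0.09 (SE), and 0.70 under quantile normalization.

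The catalytic genes had open promoters in both lines. The *Prkaca* peak (chr8:86496169-86497197) was at 64.8, 67.3, 75.4, 63.3 and 66.6 in αTC1 and at 51.7, 44.5, 54.5, 50.9 and 66.2 in βTC6, overlapping in 1 βTC6 library. Its log2 difference of -0.34 ± 0.10 (SE) turned to 0.10 under quantile normalization. The *Prkacb* peak at the outermost start (chr3:146475135-146476540) was at 52.5 ± 5.56 in αTC1 and 45.9 ± 4.66 in βTC6 (SD, n = 5 each), and its difference of -0.19 also turned, to 0.22. The peak at the inner start (chr3:146432710-146433799) was at 21.0 ± 2.2 in αTC1 and 33.4 ± 4.08 in βTC6 without overlap, and the peak 1132 bp past that start at 26.4 ± 4.65 and 24.0 ± 3.08.

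Of the other *Prkacb* peaks, those 11777 and 3335 bp past the inner start were nearly alike in both lines (1.02-fold and 1.03-fold in the mean) and 3 were unequal. The peak 13439 bp past the inner start (chr3:146419368-146420158, intronic) was at 1.40, 2.25, 1.35, 2.32 and 2.89 in αTC1 and at 14.6, 16.6, 13.5, 20.1 and 16.6 in βTC6, 7.98-fold in the mean. The peak 28440 bp past it was at 1.60 ± 0.93 and 10.6 ± 2.14, and the peak 1263 bp upstream of an annotated start at 1.42 ± 0.53 and 5.57 ± 1.04. These 3 were higher in every βTC6 library than in any αTC1 library, and the first 2 passed the fold limit, the second of them not under quantile normalization (1.82).

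**Figure D4:**
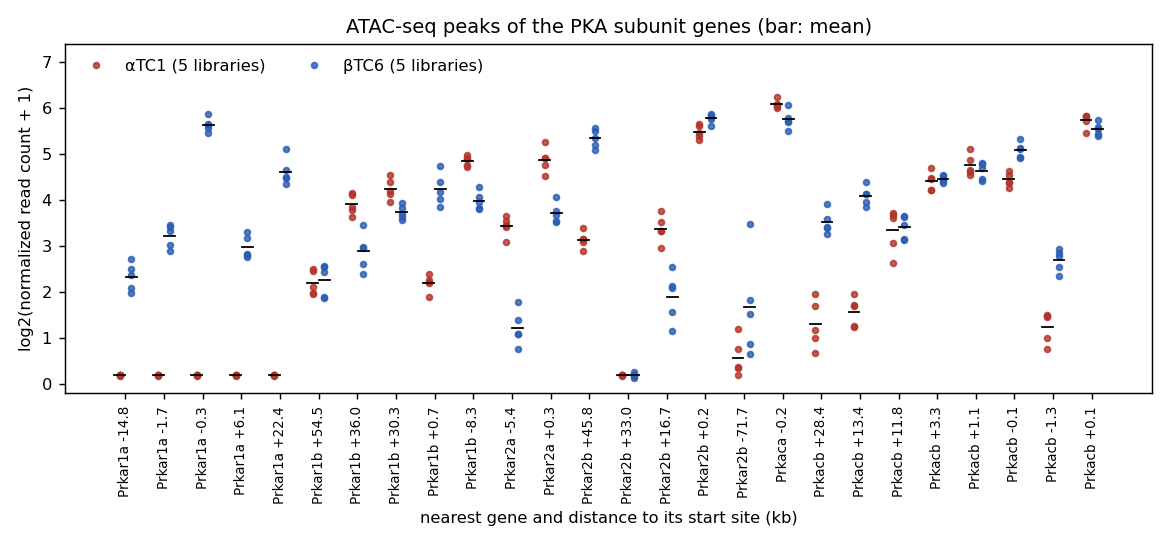
log2(normalized read count + 1) of each of the 26 ATAC-seq peaks in the 5 αTC1 (red) and 5 βTC6 (blue) libraries, with black bars for means and peaks named by nearest gene and distance to its start in kb. The 5 *Prkar1a* peaks sit at 1 read in αTC1, and the peaks at the start of *Prkaca*, the outermost start of *Prkacb* and the start of *Prkar2b* are high in both lines.

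The 9 mixtures were not used in the choice of genes, but they hold the same cell lines. A peak that differs between the pure lines should slope with composition in the same direction. Slopes and their p-values are therefore no independent test of the difference between the lines. All 10 subunit peaks called between the lines sloped in the same direction at an FDR under 5%. A slope of log2(normalized count + 1) on the fraction of βTC6 cells was fitted with limma to all 65053 peaks, so that a slope is the change from 0% to 100% βTC6. Of the 26 peaks, 14 rose with βTC6 and 6 fell at an FDR under 5%, where 33.5% and 24.8% of all peaks did so. The 14 include the 5 *Prkar1a* peaks, which lie in the same run of peaks at 1 read in αTC1. Peaks of a gene are thus not independent, and the counts are not read as a trait of the family. The median slope was 0.65 for the 26 peaks and 0.093 for all, and quantile normalization moved the latter by -0.20 and edgeR on the recovered reads by -0.15. With depth as a covariate 11 rose and 3 fell, and without the 10% and 90% mixtures 11 rose and 1 fell.

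All 5 *Prkar1a* peaks rose. The promoter peak went through 0.203, 5.56, 6.20, 12.7, 16.1, 18.4, 24.5, 31.0 and 42.5 from 10% to 90% βTC6, with a slope of 5.29 ± 0.58 (SE, limma adjusted p = 1.04e-06). The first of these values is a single read. At every mixture the value was under the straight line between the pure means, from 0.040 to 0.960 of it, and at 50% βTC6 it was 16.1 against 24.6. Summed over the 5 peaks, 8 of 9 mixtures were under the line (0.409 to 1.05 of it). Ratios to the line were computed for *Prkar1a* alone, and whether such values are particular to its peaks was not tested. The peak inside *Fam20a* had a slope of 3.89 ± 0.32 (limma adjusted p = 6.28e-08), and the peak 1720 bp upstream had 2.07 ± 0.58 (limma adjusted p = 0.0053), which did not pass without the 90% mixture (adjusted p = 0.054), without the 10% and 90% mixtures (0.15) or with depth as a covariate (0.055).

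Slopes of the other regulatory genes differed between their peaks. The *Prkar1b* inner-start peak rose (1.79 ± 0.42, limma adjusted p = 0.0016), while the peaks 8290 bp upstream of another start (-0.85 ± 0.22, limma adjusted p = 0.0031) and 35979 bp inside (-1.15 ± 0.32, limma adjusted p = 0.0054) fell. Without the 10% and 90% mixtures neither fall passed (limma adjusted p = 0.25 and 0.071), and with depth as a covariate the second did not (0.059). The *Prkar2b* peak 45822 bp inside rose through 9.75, 10.8, 19.5, 15.4, 21.9, 20.1, 29.7, 28.1 and 37.8 (2.14 ± 0.26, limma adjusted p = 2.91e-06), the peak 16671 bp inside fell (-1.75 ± 0.38, limma adjusted p = 7.9e-04), and the promoter peak did not pass (0.19 ± 0.16, limma adjusted p = 0.32) except under quantile normalization (0.48, limma adjusted p = 0.016). Both *Prkar2a* peaks fell, the promoter by 0.73 ± 0.24 (limma adjusted p = 0.014) and the upstream peak by 1.30 ± 0.46 (limma adjusted p = 0.021). The promoter slope did not pass without the 10% mixture (adjusted p = 0.13), the 90% mixture (0.090) or both (slope -0.28, 0.54), or with depth as a covariate (0.10). The upstream slope did not pass without the 20% mixture (0.075), the 90% mixture (0.16) or both the 10% and 90% mixtures (0.14).

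Of the catalytic genes, *Prkacb* had 6 of 8 peaks that rose. The intronic peak 13439 bp past the inner start went from 1.83 at 10% to 14.9 at 90% βTC6 (slope 2.58 ± 0.44, limma adjusted p = 9.81e-05), the peak 28440 bp past it had a slope of 2.80 ± 0.43 (limma adjusted p = 3.38e-05) and the inner-start peak 0.71 ± 0.21 (limma adjusted p = 0.0077, and 0.054 with depth as a covariate). The peak 1263 bp upstream of a start had a slope of 3.66 ± 0.50 (limma adjusted p = 1.18e-05) and stood at 11.6 at 90% βTC6, above the 4.14 to 6.67 of the pure βTC6 libraries. The outermost promoter peak also rose (0.59 ± 0.18, limma adjusted p = 0.0078), from 30.5 to 42.6, although αTC1 libraries stood at 43.2 to 56.3, above the 10% mixture. That slope did not pass without the 10% mixture (adjusted p = 0.082), without the 10% and 90% mixtures (0.062) or by edgeR on recovered reads (0.051). The sixth was the peak 3335 bp past the inner start, where the pure lines were nearly alike (slope 0.88 ± 0.26, limma adjusted p = 0.0088), and it did not pass with depth as a covariate (0.059) or without the 10% and 90% mixtures (0.054). The *Prkaca* peak fell by 0.41 ± 0.17 (limma adjusted p = 0.040), a call lost without any 1 of the 10%, 20%, 40%, 70% and 90% mixtures (adjusted p from 0.057 to 0.17), without the 10% and 90% mixtures together (0.19), with depth as a covariate (0.097) and under quantile normalization (0.72).

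**Figure D5:**
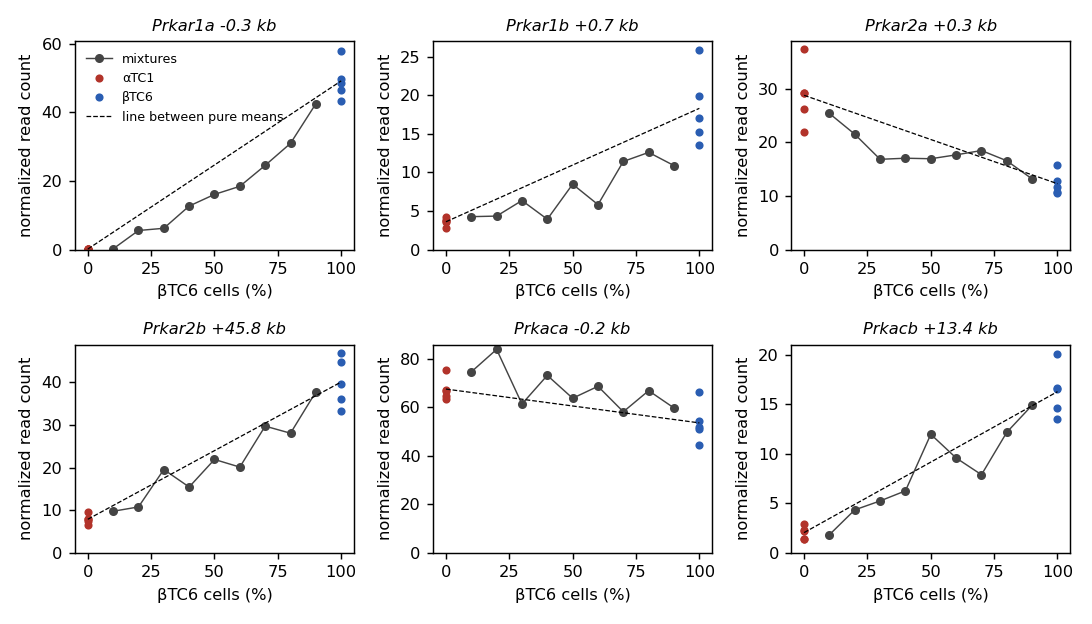
Normalized read count against the percentage of βTC6 cells for 1 peak per gene, with mixtures in gray (9, each a single library), the 5 αTC1 and 5 βTC6 libraries in red and blue, and a dashed line between the pure means. The *Prkar1a* values lie under the line at all 9 mixtures, and the *Prkaca* values of the mixtures run from 58.1 to 83.9.

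The genes around PKA were examined by lists of related function. The first list held 12 genes of adenylyl cyclases, which make cAMP, and the G proteins that stimulate them. Of these, 6 reached an FPKM of 1 in every library of αTC1 or of βTC6 and were tested. Among the 6, 4, all of them cyclases, were called higher in βTC6 and 0 higher in αTC1 (list median log2 fold change 2.63, all genes 0.0094). Of all genes tested 10.2% and 4.08% were called in these directions, which is also the background of the lists that follow. By FDR alone, 38.7% and 36% of all genes were higher in βTC6 and αTC1. *Adcy1*, *Adcy2* and *Adcy3* passed the FPKM filter through βTC6 alone, the line where they were higher. In the lists that follow this also held for *Pde4c*, *Pde1b*, *Pde2a*, *Akap12*, *Cbfa2t3*, *Bves*, *Popdc3*, *Hcn4*, *Sst*, *Ppp1r1a* and *Hnf4a*. *Pde1a*, *Pde3a* and *Akap3* passed it through αTC1 alone. Counts and medians of the lists are therefore a description and carry no test. *Adcy1*, a calcium-stimulated adenylyl cyclase, was at 0.013 ± 0.012 FPKM in αTC1 and 13.1 ± 2.09 in βTC6, at least 1116-fold higher, *Adcy2* had a log2 fold change of 4.78 ± 0.26 (edgeR adjusted p = 4.07e-07) and *Adcy3* 2.65 ± 0.18 (edgeR adjusted p = 1.72e-06). *Gnas*, the stimulatory G protein, was at 2688 ± 106 and 2748 ± 176 FPKM and did not pass, and *Adcy6*, at 26.4 ± 0.30 and 11.5 ± 1.12 FPKM, was higher in αTC1 without reaching the fold limit.

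Phosphodiesterases, which degrade cAMP, were split, 3 of 12 tested being called higher in βTC6 and 3 in αTC1, with a list median of -1.10. *Pde3a* (37.1 ± 4.77 against 0.457 ± 0.11 FPKM, log2 fold change -6.39 ± 0.18), *Pde1c* (92.9 ± 9.03 against 19.8 ± 3.77 FPKM) and *Pde1a* (at least 55.5-fold) were higher in αTC1. *Pde4c*, *Pde1b* and *Pde2a* were higher in βTC6, all at under 3 FPKM (log2 fold changes 5.53, 4.93 and 3.09). The summed list stood at 321 ± 3.66 FPKM in αTC1 and 118 ± 13.3 in βTC6. By FDR alone 9 of the 12 were higher in αTC1 and 3 in βTC6, and the 9 included *Pde3b*, at 49.7 ± 3.35 and 20.4 ± 1.71 FPKM.

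The PKA inhibitor peptides and related kinases did not pass the rule in either direction (0 of 5, list median 0.083). *Pkig*, an inhibitor peptide, was at 44.4 ± 2.39 FPKM in αTC1 and 41.6 ± 3.33 in βTC6, and *Pdpk1*, which phosphorylates the catalytic subunit, at 18.9 ± 1.55 and 14.7 ± 1.40. Of 17 tested anchoring proteins 3 were called higher in βTC6 and 1 in αTC1 (median 0.26), and 9 and 7 passed by FDR alone. *Akap12* (0.297 ± 0.035 against 18.9 ± 3.39 FPKM, log2 fold change 6.05 ± 0.17, edgeR adjusted p = 9.34e-09), *Cbfa2t3* (5.16 ± 0.47) and *Ezr* (2.55 ± 0.11) were higher in βTC6 and *Akap3* (-2.49 ± 0.23) in αTC1. *Sphkap*, an anchoring protein that prefers RI subunits, was at 96.1 ± 8.46 FPKM in αTC1 and 43.7 ± 5.77 in βTC6.

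Among other proteins that bind cAMP, 3 of 7 tested were called higher in βTC6 and 0 in αTC1 (median -0.63), and 3 and 4 passed by FDR alone. These were *Bves* and *Popdc3*, Popeye domain proteins (at least 391-fold and 79.0-fold), and the channel *Hcn4* (at least 132-fold). *Rapgef4*, which encodes Epac2, was at 43.8 ± 0.81 FPKM in αTC1 and 27.4 ± 4.2 in βTC6, a log2 fold change of -0.63 ± 0.10 (edgeR adjusted p = 3.12e-04).

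Downstream of PKA, 1 of 11 CREB family and coactivator genes was called, *Sik1*, a kinase that restrains CREB coactivators, which was higher in αTC1 (52.4 ± 2.36 against 3.49 ± 1.63 FPKM, log2 fold change -3.85 ± 0.27; list median -0.31). By FDR alone 3 were higher in βTC6 and 6 in αTC1. *Creb1* itself was at 21.1 ± 1.48 FPKM in αTC1 and 9.95 ± 1.56 in βTC6. Of 17 tested CREB target genes 4 were called higher in βTC6 and 3 in αTC1 (median -0.53), and 5 and 8 passed by FDR alone. *Ppargc1a* (96.2 ± 9.54 against 3.10 ± 0.93 FPKM), *Sik1* and *Irs2* (98.2 ± 2.56 against 21.4 ± 0.25 FPKM) were higher in αTC1. *Sst*, somatostatin, was at least 1187-fold higher in βTC6, and *Egr1* was at 17.1 ± 7.83 FPKM in αTC1 and 137 ± 79.5 in βTC6 (edgeR adjusted p = 5.08e-04). *Fos* was called higher in βTC6 (edgeR adjusted p = 0.011), but at 26.6, 22.8 and 8.37 FPKM in αTC1 and 104, 18.3 and 236 FPKM in βTC6 the lines overlapped, with βTC6 replicate 2 below 2 of the αTC1 libraries. *Fosb*, the last of the 4 (edgeR adjusted p = 0.048), overlapped as well, at 4.92, 4.92 and 2.08 FPKM in αTC1 and 8.95, 1.52 and 49.3 FPKM in βTC6.

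Of 19 tested PKA substrates of secretion and metabolism 5 were called higher in βTC6 and 0 in αTC1 (median 0.17), but by FDR alone 8 were higher in βTC6 and 6 in αTC1. Among the 6 was *Cacna1c*, a calcium channel subunit, at 50.2 ± 3.14 against 12.5 ± 1.61 FPKM (log2 fold change -1.86 ± 0.09). *Ppp1r1a*, a phosphatase inhibitor that PKA activates, was at 0.020 ± 0.035 FPKM in αTC1 and 191 ± 10.8 in βTC6, at least 2001-fold higher. The transcription factor *Hnf4a* was at least 296-fold higher in βTC6. The secretory protein *Snap25* was at 87.0 ± 4.73 and 89.1 ± 9.06 FPKM and did not pass.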

How the data were processed

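The genes and lists were chosen with earlier results of these data known. Per the labels, the authors trimmed reads with Trim Galore and quantified RNA with Bowtie2 and RSEM 1.2.12 on mm9. They deposited expected counts and FPKM per gene from a stranded mRNA library. For ATAC-seq, the authors aligned reads with BWA 0.7.9a to mm9, called peaks with MACS2 2.1.0, annotated them with HOMER 4.6 and deposited a signal of TMM-normalized read counts in consensus peaks. Every normalized value was a whole multiple of what 1 read is worth (100% of values within a relative tolerance of 1e-04). The table also holds the authors' own classes of peaks, which were not used here.

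RNA was tested on rounded expected counts with edgeR 4.0.16 (TMM, quasi-likelihood) for genes that reached an FPKM of 1 in each library of αTC1 or of βTC6, spike-ins left out. TMM replaced the authors' spike-in step. ATAC-seq was tested with limma 3.58.1 on log2(normalized count + 1), which understates changes of low peaks. All p-values were adjusted by Benjamini-Hochberg over all features. Calls needed an FDR under 5% and, between lines, an absolute log2 fold change over 2. Both pipelines were tested on simulated data. Floors of 3 counts cover counting error only. Of several rows for 1 symbol, that with most counts was used. Coordinates are mm9, read as counted from 1, with exons from GENCODE. Named were all 6 genes, each peak within 2 kb of a start, the peaks with the highest mean and the 2 with the largest fold change per gene, 3 nearest genes by pattern, the neighbors of Prkar1a, and up to 3 called genes a direction from each list or, with fewer than 2 called, its 2 most abundant. Gnas, Adcy6, Pde3b, Sphkap, Rapgef4, Creb1, Snap25, Ttr and the cell type markers at or near 0 were named after their values were seen. The same holds for Cacna1c, Fosb, Cd68 and Col1a1. Of the items these rules name, 1 gene and 1 sequence are not reported here. Alternatives were DESeq2 1.42.0, spike-in scaling, other filters, pseudocounts and normalizations, subsets of replicates and leaving out each library.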

Additional observations from a re-analysis of the deposited data

Results flagged for a closer look

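The Prkar2b peak 71665 bp upstream of the start had 1 βTC6 library far from the others. βTC6 replicate 5 was at 10.2 normalized reads, and the other 4 were between 0.571 and 2.56, a gap of 0.795 of the whole range. The αTC1 libraries had a mean of 0.543 ± 0.47 (SD, n = 5). The log2 difference of βTC6 over αTC1 was 1.10 ± 0.36 (SE) with replicate 5 and 0.64 ± 0.23 without it. On recovered reads edgeR gave 2.61 (adjusted p = 8.17e-04), which made this peak a 10th subunit peak called higher in βTC6 beside the 9 reported. In the mixtures the same peak went from 0.610 at 10% to 9.41 at 90% βTC6, with a slope of 2.93 ± 0.46 (SE, limma adjusted p = 4.55e-05), so the mixture with most βTC6 cells stood near replicate 5 and above the other 4 pure βTC6 libraries. Replicate 5 also had the most reads in peaks (10374903), and the part of depth in this difference was not tested. In all, 45 groups of 5 libraries were examined and 1 was flagged, where chance flags about 1 in 20.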

How the results depend on the processing

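The subunit genes kept their direction and their place among the calls under DESeq2, spike-in scaling, no FPKM filter and without any 1 library, and the bound for Prkar1a ranged from 10523 to 12249-fold without 1 library. Without the FPKM filter 2510 genes were called higher in βTC6 and 1020 in αTC1 (1245 and 498 with it), because more genes were tested. For ATAC-seq, edgeR on recovered reads called 13794 and 5739 peaks and a pseudocount of 5 called 1668 and 819 (8409 and 3502 as reported), and among the 26 peaks a pseudocount of 5 left 2 calls higher in βTC6 and 0 in αTC1, since it shrinks the fold of low peaks. Across the mixtures, a mean of at least 5 reads left fewer peaks to test and 13430 rising (21761 as reported), and 9555 fell (16151 as reported) without the 10% and 90% mixtures. The ratio of catalytic to regulatory transcripts in αTC1 was 2.1 on expected counts without length scaling (2.96 in FPKM), and the share of Prkar2a in αTC1 was 79.7% (71.3% in FPKM). The ratio in βTC6 was 1.57 without Prkar1a, an alternative chosen after seeing the data, as were the bounds. The labels do not say whether replicate numbers pair the samples, and the main fits used no pairing. Deviations from the line means were nearly uncorrelated between libraries of the same number (correlations between -0.036 and 0.069). With the replicate number as a block 1241 and 503 genes and 8409 and 3502 peaks were called, and no subunit call changed. Each mixture was a single library, and low peaks with few reads limit the slopes.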
